A study of Mus musculus with 96 samples.

Results

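Levels of the mouse zinc finger genes Zfp900 to Zfp999 were described across 42 Collaborative Cross strains. The members were all protein-coding genes whose symbol is in the numbered series Zfp900 to Zfp999, which gave 63 genes of the 21431 protein-coding genes in the table. Collaborative Cross strains are inbred mice that descend from crosses of several founder strains, and each one carries its own mosaic of founder chromosomes. Each group was 1 strain, named by its CC number, and no strain was given a treatment beyond culture. In every strain osteoblasts were freed from the calvaria of pups aged 3 to 5 days, were grown for 48 h and were then held in mineralizing medium for 10 days. RNA longer than 200 nt was sequenced after ribosomal RNA depletion, from 200 ng of total RNA per library. There were 95 independent libraries: 2 libraries for 31 strains, 3 for 2 strains, 4 for 6 strains and a single one for CC011, CC024 and CC035. Every level below is in TPM, a unit that is per transcript length and per library total, after a scaling between libraries. The labels do not say that libraries of a strain came from different pups, so p-values measure only the spread between these libraries.

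Most of these genes encode KRAB zinc finger proteins. Such a protein reads a DNA sequence with a row of zinc fingers, while its KRAB domain recruits the corepressor TRIM28 and, through it, the histone methyltransferase SETDB1 and heterochromatin proteins, a system best known for silencing transposable elements. The genes lie in clusters of tandem duplicates that differ between mouse strains, and deletion of such clusters on chromosomes 2 and 4 has been tied to higher transcripts of some endogenous retroviruses in mouse embryonic stem cells. Of the 63 members, 59 carried the letters of a KRAB A box in the first 120 residues of the encoded protein, and the median protein had 11 fingers (range 0 to 21, 42 proteins with at least 10). No finger matched the search pattern in Zfp935, Zfp957 and Zfp972. Across the 52 tested members, the finger number and the range of levels between strains had r = -0.24.

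The members lay mainly in 3 clusters (GRCm38 coordinates from the GENCODE annotation). The cluster at chr2:175372436-178078476 held 10 members among 38 protein-coding genes, the one at chr4:145510759-147848366 held 16 among 22, and the one at chr17:21567008-22867134 held 10 among 18. The other 27 were elsewhere. How close the copies are is shown by 84 bases that encode finger 4 of 6 of Zfp973, read 5′ to 3′ from the GENCODE transcripts beside the most alike stretch of 6 other members. Capitals mark bases that differ from Zfp973.
Zfp973: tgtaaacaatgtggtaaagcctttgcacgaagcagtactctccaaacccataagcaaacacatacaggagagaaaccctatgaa
Zfp965: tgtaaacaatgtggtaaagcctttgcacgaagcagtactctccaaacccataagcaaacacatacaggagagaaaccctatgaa
Zfp968: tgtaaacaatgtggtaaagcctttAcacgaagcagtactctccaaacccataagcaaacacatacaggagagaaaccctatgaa
Zfp966: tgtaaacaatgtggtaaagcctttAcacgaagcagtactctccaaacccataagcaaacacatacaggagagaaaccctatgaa
Zfp970: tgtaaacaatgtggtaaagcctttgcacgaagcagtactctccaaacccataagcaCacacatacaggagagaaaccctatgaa
Zfp979: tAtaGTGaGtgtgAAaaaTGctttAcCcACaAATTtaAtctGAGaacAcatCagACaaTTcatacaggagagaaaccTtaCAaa
Zfp990: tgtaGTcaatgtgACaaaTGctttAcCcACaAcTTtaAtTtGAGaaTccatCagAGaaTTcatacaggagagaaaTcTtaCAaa
Zfp965 had no difference from Zfp973 in this stretch, and Zfp968, Zfp966 and Zfp970 had 1 each. The chromosome 4 members Zfp979 and Zfp990 differed at 30 and 28 of the 84 bases.

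Start regions are shown for 2 wide-ranging members of each of the chromosome 2 and 4 clusters. They are the bases before the RefSeq start (GRCm38.p6, 5′ to 3′ on the gene's strand, trimmed at any annotated exon), with CCAAT or its reverse complement ATTGG in capitals. The windows are chr2:175372186-175372435 (plus strand) for Zfp968, chr2:176670272-176670521 (plus) for Zfp973, chr4:147642514-147642758 (minus) for Zfp979 and chr4:147809841-147810038 (minus) for Zfp984.
Zfp968: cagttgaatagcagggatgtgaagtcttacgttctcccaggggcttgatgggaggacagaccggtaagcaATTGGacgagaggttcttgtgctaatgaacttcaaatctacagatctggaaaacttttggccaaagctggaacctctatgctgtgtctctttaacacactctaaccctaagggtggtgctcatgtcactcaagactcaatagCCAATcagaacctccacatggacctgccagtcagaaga
Zfp973: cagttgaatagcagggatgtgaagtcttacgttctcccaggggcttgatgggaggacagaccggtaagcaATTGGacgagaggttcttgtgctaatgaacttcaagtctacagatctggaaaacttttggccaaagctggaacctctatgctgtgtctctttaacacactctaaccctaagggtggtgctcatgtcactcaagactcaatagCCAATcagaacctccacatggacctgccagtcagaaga
Zfp979: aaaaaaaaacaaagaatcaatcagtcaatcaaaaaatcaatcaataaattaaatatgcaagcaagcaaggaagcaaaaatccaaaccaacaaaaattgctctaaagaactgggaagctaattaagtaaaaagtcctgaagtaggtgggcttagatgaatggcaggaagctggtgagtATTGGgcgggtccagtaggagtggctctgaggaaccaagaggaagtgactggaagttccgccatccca
Zfp984: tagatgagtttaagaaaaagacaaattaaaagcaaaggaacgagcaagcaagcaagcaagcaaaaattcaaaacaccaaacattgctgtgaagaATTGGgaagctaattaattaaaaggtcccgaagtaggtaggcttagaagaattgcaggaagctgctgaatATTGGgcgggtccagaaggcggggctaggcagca
The Zfp968 and Zfp973 windows differed at 1 of 250 bases, A106G counted from the window's 5′ end. Aligned over the untrimmed 250 bases, exon bases included, Zfp979 and Zfp984 were 68.4% identical. The chromosome 2 windows were 46.2% to 48.2% identical to these untrimmed windows. Over the 250 bases before the start, on both strands, CCAAT was present in 46 of the members' 60 windows (76.7%), against 33.9% of all 32851 windows and 41.4% of 307 windows of the genes Zfp1 to Zfp899. The core bound by ETS factors, TTCCGG, was in 45% of member windows, 27.0% of windows of Zfp1 to Zfp899 and 12.0% of all windows. The motif read by SP factors, GGGCGG, was in 28.3% of member windows, 43.3% of windows of Zfp1 to Zfp899 and 32.7% of all. The motif TATAAA of TATA boxes was in 0% of member windows, 8.14% of windows of Zfp1 to Zfp899 and 12.4% of all. The 60 windows covered 53 of the 63 members, and copies share much of their sequence, so these are not independent windows.

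The cultures carried the RNA of the labelled cell type. The summed level of 13 osteoblast markers was between 12235 TPM (CC055) and 29286 TPM (CC061) by strain, and all 13 were above the filter. The macrophage sum of 10 markers ran from 18.4 (CC005) to 1066 (CC030), and the smooth muscle sum from 159 to 1356. Osteoclast markers summed to 80.8 to 384, with Calcr, Oscar, Dcstamp and Ocstamp at a median under 0.1, as were Pecam1, Tie1 and Emcn of endothelial cells and Myod1, Myog, Actn2 and Ryr1 of skeletal muscle. Over the 42 strain means no tested member had an r beyond 0.5 in size with the osteoblast, macrophage or osteoclast sum. With the osteoblast sum r ran from -0.36 to 0.47, and with the macrophage sum from -0.37 to 0.40. With the smooth muscle sum it ran from -0.499 (Zfp943) to 0.53 (Zfp948), the latter the only r beyond 0.5 in size. In bulk RNA, fewer cells of a type and less RNA per cell cannot be told apart. Depth, estimated from the spacing of low values in 94 libraries, was 21 to 39.8 Mreads in 93, and 83.4 Mreads in the first library of CC075. The 2 libraries of CC051 correlated least of 73 same-strain pairs (r = 0.934, median 0.981) and had osteoblast sums of 10801 and 27015. Without the first library of CC051 and of CC075, an alternative chosen after seeing the data, the count of members that differed between strains was again 49.

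Most measured members differed between strains. Of the 63 members, 52 reached 0.5 TPM in at least 2 libraries and were tested, and 49 of these (94.2%) passed limma's moderated F test between 39 strains with an adjusted p under 0.05, where 81.6% of all 15640 tested genes passed. The gap from the lowest to the highest strain mean among the tested strains, on a scale of log2(TPM + 0.5), had a median of 1.23 over the tested members (2.35-fold) and 1.03 over all tested genes (2.04-fold). It was above 2 in 12 members (23.1%) and in 15.9% of all tested genes. Of the 13446 tested protein-coding genes, 86.0% passed, the median gap was 0.99 and 14.5% exceeded 2. Among the 276 tested genes of Zfp1 to Zfp899, 216 passed (78.3%), the median gap was 0.72 (1.64-fold), and 4 (1.45%) exceeded 2. In a smaller set of 20 strains whose libraries carry running numbers in their sample titles that are at least 20 apart, 35 members passed, where 41.4% of all tested genes did.

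The spread was unequal between the clusters. All 10 tested members of the chromosome 4 cluster passed, with a median gap of 3.08 on the log2 scale (8.43-fold), and all 8 of the chromosome 2 cluster, with 2.54 (5.82-fold). All 10 members of the chromosome 17 cluster passed too, with a median of 1.06 (2.08-fold). Elsewhere 21 of 24 (87.5%) passed, with a median of 0.96 (1.95-fold). Over all tested genes 81.6% passed, with a median of 1.03 (2.04-fold). The median gaps on chromosome 17 and elsewhere were thus near that of all tested genes. Of the 12 members above a gap of 2, 7 lay on chromosome 4, 4 in the chromosome 2 cluster and 1, Zfp951, on chromosome 5. The share of the variance that lay between strains had a median of 0.947 in the chromosome 4 cluster, 0.823 on chromosome 2, 0.722 on chromosome 17 and 0.557 elsewhere, against 0.471 over all tested genes.

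**Figure D1:**
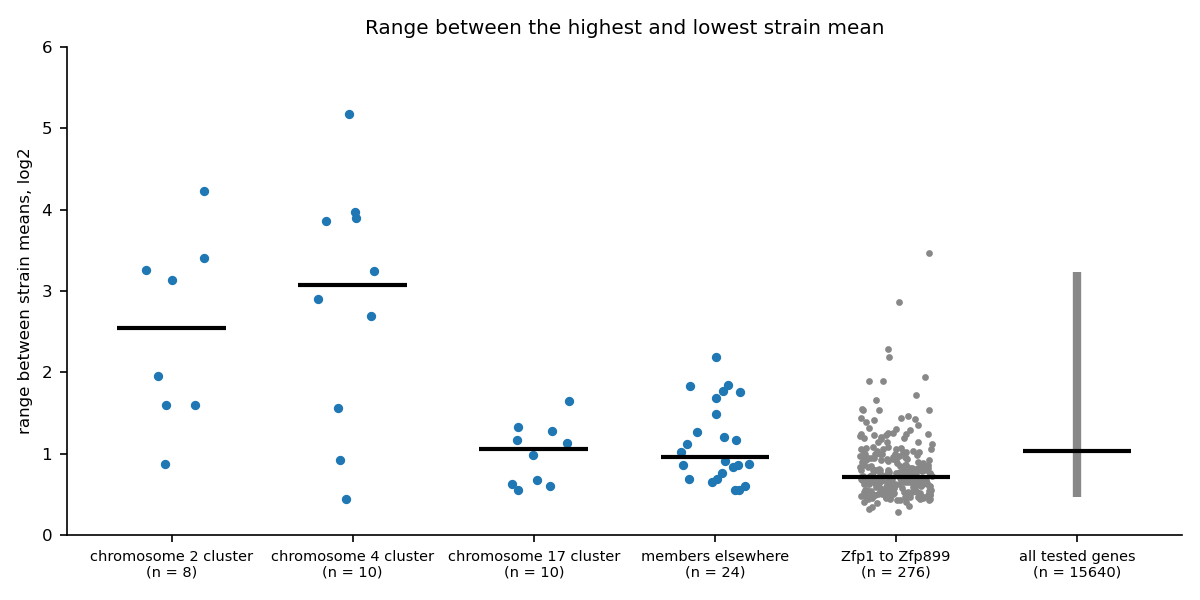
Gap from the lowest to the highest strain mean of log2(scaled TPM + 0.5) for tested genes, 1 point per gene, with black lines at medians and a grey bar from the 5th to the 95th percentile (0.47 to 3.24) of all 15640 tested genes. Medians were 2.54 and 3.08 in the chromosome 2 and 4 clusters, 1.06 on chromosome 17 and 0.96 elsewhere.

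Some members were near 0 in some strains and at 1 TPM or more in others. Here near 0 means that every library of a strain was under 0.1 TPM while another strain had a mean of at least 1 TPM. This held for 7 of the 48 members that reached a mean of 1 TPM in some strain (14.6%). It held for 8.65% of 13769 such genes in all and for 5.27% of 12457 such protein-coding genes. The 7 members were Zfp979 (9 strains), Zfp990 (6), Zfp982 (3), Zfp984 and Zfp965 (2 each), and Zfp973 and Zfp972 (1 each). The highest strain mean of Zfp972 was 1.04 TPM, and those of the other 6 were between 4.48 (Zfp982) and 17.9 (Zfp979). The number of strains depends on the limit and on the libraries used for several of them. Under a limit of 0.05 TPM it was 7 for Zfp979, 3 for Zfp990, 1 for Zfp982 and for Zfp984, and 0 for Zfp965 and Zfp973. With replicate 1 of each strain left out it was 6 for Zfp982, 4 for Zfp972 and 3 for Zfp965 and for Zfp973, and without replicate 2 it was 4 for Zfp972 and 7 for Zfp990. By strain, CC015 had 3 such members, CC032, CC039 and CC044 had 2 each, and 15 other strains had 1. The 2 members of CC039 were Zfp965 and Zfp973, whose values there are those of 1 transcript sequence listed under both genes. At the median depth, 0.1 TPM stands for about 7.98 reads of Zfp979, 9.39 of Zfp990, 8.53 of Zfp984, 3.77 of Zfp982, 3.85 of Zfp965 and Zfp973 and 1.58 of Zfp972, so a low value of the last 4 rests on few reads. A value of exactly 0 can also be a failed estimate.

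Zfp979 (chr4:147611937-147642513, minus strand) had the widest range of all members. Its libraries read 20.8 and 14.9 TPM in CC071, 16.3 and 18.8 in CC007, 16, 13.7, 16.5 and 14.1 in CC025, and 5.53 and 4.76 in CC043, near the median strain level of 5.14. In CC002 they were 0 and 0.0106, in CC011, with 1 library, 0.0194, and in CC040 both were under 0.001. Ordered by mean and cut at the widest gaps, the strains fell in 3 ranges. The lowest held 22 libraries of 10 strains at 0 to 0.168, and the middle 21 libraries of 9 strains at 0.785 to 2.65. The highest held 52 libraries of 23 strains at 4.46 to 20.8. The cuts were placed by these same values, so strain means could not overlap, and no library crossed a cut. The lowest 10 strains were CC001, CC002, CC011, CC015, CC030, CC032, CC040, CC044, CC065 and CC075. The last was not counted as near 0, since the first of its 3 libraries read 0.168, and without that library it would be the 10th such strain. The highest strain mean was 17.9 ± 4.2 (SD, n = 2, CC071). The gap between strain means was 5.18 on the log2(TPM + 0.5) scale, with an adjusted p of 3.08e-47 in limma's moderated F test. Against the mean of the other strains it was lower in 18 strains and higher in 21 of the 39 tested.

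Zfp990 (chr4:145510759-145539188, plus strand) was near 0 in other strains than Zfp979. Its libraries read 7.27 and 6.94 TPM in CC057, 7.49 and 5.92 in CC071, and 2.77 and 3.53 in CC032, near the median strain level of 2.86. In CC004 they were 0.0697, 0.0164, 0.0523 and under 0.001, in CC061 0.0233 and 0.0271, and in CC053 0.0364 and 0.113. The 7 lowest strains (CC004, CC006, CC037, CC051, CC053, CC059 and CC061) stayed at or below 0.113 in all 17 libraries, and the other 35 strains lay between 0.98 and 7.49. Their strain means had a gap of 3.90 (adjusted p 2.74e-43 in limma's moderated F test), from 0.00842 ± 0.0075 (SD, n = 3) in CC059 to 7.11 ± 0.23 (SD, n = 2) in CC057. None of these 7 strains was among the 10 lowest of Zfp979, and all 7 were in its middle range.

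Zfp982 (chr4:147492417-147513486, plus strand) was high where Zfp990 was near 0. Its 7 highest strains were the 7 lowest of Zfp990: libraries read 5.16 and 3.79 TPM in CC061, 3.9, 5.56, 3.9 and 4.49 in CC004, and 4.22, 2.84 and 3.74 in CC059. The 17 libraries of these 7 strains spanned 2.02 to 5.56, and no library of the other 35 strains was above 0.827. In CC015 its libraries read 0.0193, 0, 0.0263 and 0.0274, and in CC032 0.0976 and 0. The gap of Zfp982 was 3.25 (adjusted p 1.88e-32, limma's moderated F test), and its r with Zfp990 over the 42 strain means was -0.80.

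Zfp984 (chr4:147753974-147809788, minus strand) was the other chromosome 4 member near 0 in some strains. It read 7.14 and 6.78 TPM in CC006, 7.43 and 5.58 in CC051, and 1.9 and 2.25 in CC045, near its median level of 2.09. In CC044 its libraries were under 0.001 and 0.0258, and in CC015 they were 0.0607 and 3 values under 0.001. All 6 libraries of CC015 and CC044 were at or below 0.0607 and the other 40 strains at or above 0.363. Its gap was 3.86 (adjusted p 3.18e-33, limma's moderated F test). Zfp985 (chr4:147553277-147585198, plus strand) was low throughout, with 1.21 and 0.776 TPM in CC071, its highest strain, and did not reach a mean of 1, so it is not counted among the 7 members near 0. It was at or below 0.0573 in 9 strains, which were the 7 lowest of Zfp990 with CC015 and CC044. The gap of Zfp985 was 1.56 (adjusted p 4.64e-24).

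**Figure D2:**
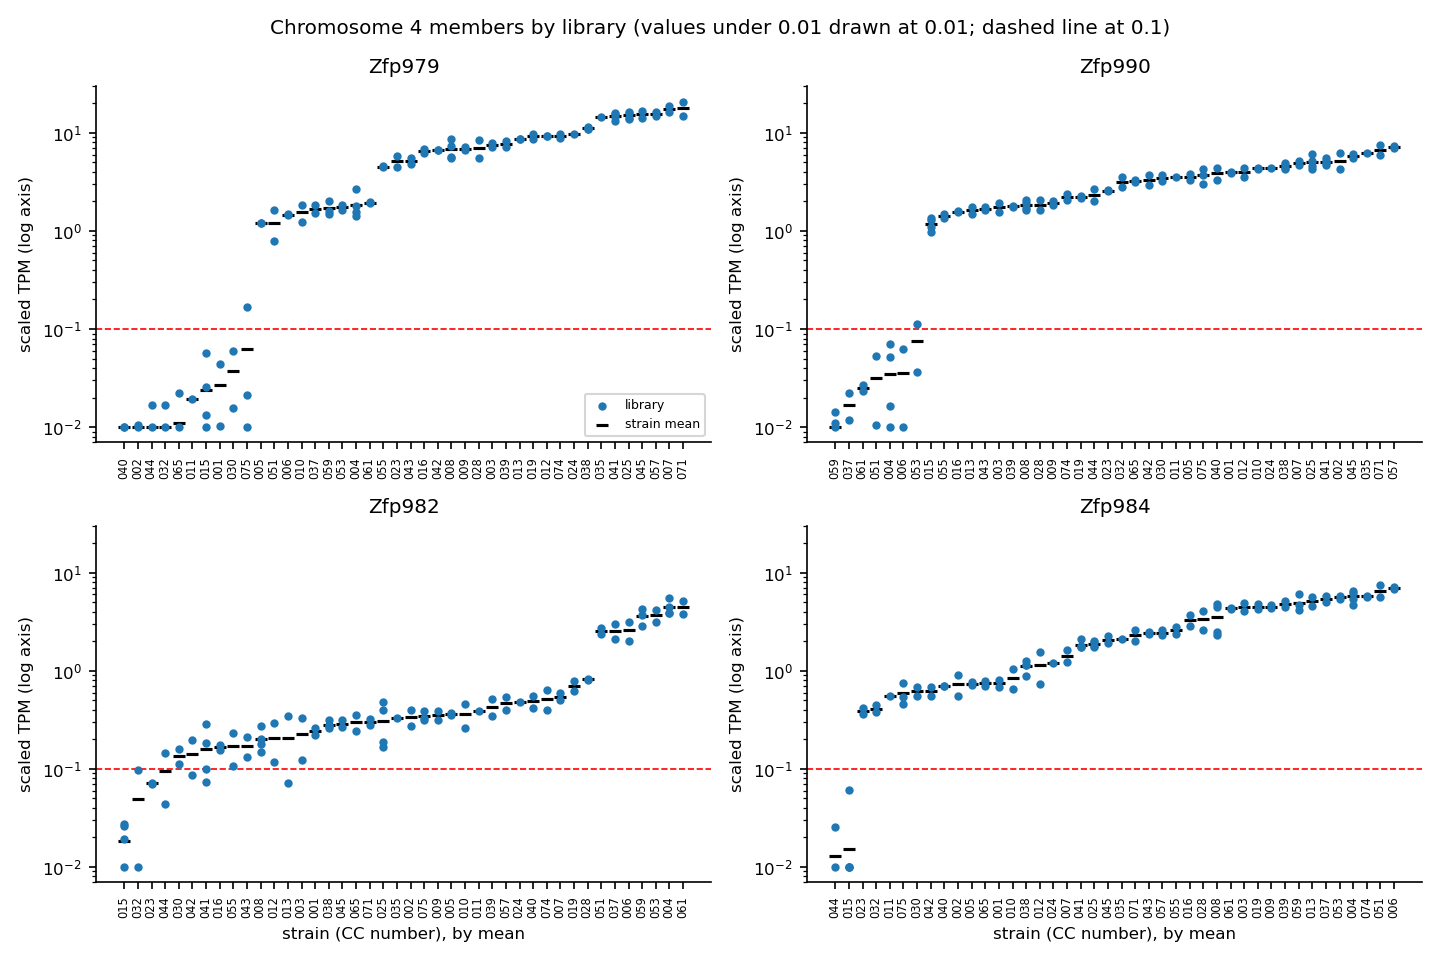
Scaled TPM of Zfp979, Zfp990, Zfp982 and Zfp984 in every library (blue points, log axis) with strain means (black bars), strains ordered by mean within each panel. Zfp979 shows the ranges 0 to 0.168, 0.785 to 2.65 and 4.46 to 20.8, and Zfp990 a break between 0.113 and 0.98.

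Zfp991, Zfp992 and Zfp993, close copies of each other on chromosome 4, were high in largely the same strains. Zfp991 (chr4:147132038-147180579) read 12.2 and 13.6 TPM in CC053, 11 and 9.25 in CC061 and 9.75, 13.7, 8.05 and 8.86 in CC004. It read 0.848 and 1.1 in CC007, near the median level of 1.01, and 0.39, 0.343, 0.444 and 0.256 in CC015. Its 9 highest strains were CC004, CC005, CC006, CC010, CC037, CC051, CC053, CC059 and CC061. Their libraries spanned 5.59 to 13.7 and no other library was above 2.89, with the cut placed by these same values. The 9 are the strains of the middle range of Zfp979. Zfp992 read 7.55 and 7.19 in CC053 and 0.682, 0.395, 0.711 and 0.458 in CC015, and its 9 highest strains shared 8 with those of Zfp991, although its libraries overlapped (3.46 to 7.55 against up to 3.75). Zfp993 read 4.33 and 5.24 in CC053 and 0.2 and 0.443 in CC044. The gaps were 3.97, 2.90 and 2.69 (adjusted p 3.19e-30, 4.99e-26 and 1.79e-14 in limma's moderated F test). For Zfp993, the 2 runs of the CC030 library, sequenced 2 times, differed by 0.75 on the log2 scale, the largest such difference of the 52 tested members (median 0.18).

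The chromosome 4 members moved with and against each other. Among the 45 pairs of its 10 tested members, 11 had r above 0.5 over the 42 strain means and 6 had r below -0.5, whereas 8 of 1138 pairs on different chromosomes (0.703%) had r above 0.5 and 0 had r below -0.5. The highest were Zfp978 with Zfp979 (0.88), Zfp991 with Zfp993 (0.87), Zfp991 with Zfp992 (0.87), Zfp992 with Zfp993 (0.86), Zfp982 with Zfp991 (0.86) and Zfp985 with Zfp990 (0.82). Negative ones were Zfp982 with Zfp990 (-0.80), Zfp990 with Zfp991 (-0.67) and Zfp984 with Zfp990 (-0.58). All 10 lowest strains of Zfp979 were among the 14 lowest of Zfp984. All were also among the 13 lowest of Zfp978, a gene under 0.51 TPM in every strain mean that shared 50.8% of its 31-base words with Zfp979. Zfp933, at the end of the cluster, differed from the rest, with libraries between 1.89 and 3.20 TPM and a gap of 0.44 (adjusted p 0.02). How far reads shared between copies set these correlations was not tested.

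On chromosome 2, Zfp973, Zfp965, Zfp966 and Zfp968 were low in the same 11 strains, CC002, CC004, CC010, CC024, CC025, CC039, CC042, CC045, CC053, CC061 and CC065. Zfp973 (chr2:176670522-176719085, plus strand) read 11.6 and 8.86 TPM in CC051, 9.09 and 8.76 in CC030, and 6.73 and 6.88 in CC037, near the median level of 6.68. It read 0.0549 and 0.0844 in CC039, 0.143 and 0.0823 in CC045, and 0.448, 0.224, 0.118 and 0.157 in CC004. The 11 strains stayed at or below 0.755 in all 25 libraries and the other 31 at or above 3.77. The gap of Zfp973 was 4.22 (adjusted p 1.2e-39, limma's moderated F test). Zfp965 read 7.15 and 4.25 in CC051 and 0.0549 and 0.0844 in CC039, with no library of the 11 strains above 0.735 and none of the others under 2.32. Zfp966 read 5.25, 7.84, 6.31 and 7.56 in CC038 and 0.239 and 0.264 in CC045, with 0.239 to 1.05 against 2.25 to 7.84. Zfp968 read 5.47, 5.9, 5.35 and 6.54 in CC038 and 0.141 and 0.308 in CC039, and its ranges overlapped, since the single CC024 library read 2.09 while others began at 1.55. Their gaps were 3.40, 3.25 and 3.13 (adjusted p 4.17e-29, 2.05e-29 and 1.61e-20). Without the first library of CC051 and of CC075, the gaps of Zfp973 and Zfp965, both highest in CC051, were 4.05 and 3.28.

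These 4 genes cannot be fully told apart in the table. Of the 31-base words in their transcripts, 90.6% (Zfp973), 97.9% (Zfp965), 93.9% (Zfp966) and 97.3% (Zfp968) also occur in transcripts of other genes. A deposited transcript of Zfp965 and one of Zfp973 have the same 1271 bases, and their values were equal in 95 of 95 libraries. This shared transcript makes up 92.7% of the level of Zfp965 and 52% of that of Zfp973, so the low value of Zfp965 in CC039 equals that of Zfp973. A 1295-base transcript of Zfp973 is identical as a whole to no transcript of another member, but it shares stretches such as finger 4 with Zfp965. It had a median level of 2.67 TPM and a gap of 3.41 (adjusted p 9.03e-29, limma's moderated F test). The correlations of strain means were 0.99 for Zfp965 with Zfp973, 0.97 for Zfp966 with Zfp973 and 0.94 for Zfp968 with Zfp973. When copies that share at least 50% of words were summed, the gap was 4.57 for Zfp973, 4.46 for Zfp965, 3.74 for Zfp966 and 4.34 for Zfp968, and neither Zfp965 nor Zfp973 was then near 0 in any strain. On chromosome 4 the shared shares were 91.9% for Zfp993, 88% for Zfp991, 68.8% for Zfp984, 48.8% for Zfp990, 31.5% for Zfp979 and 28.6% for Zfp982. Zfp979, Zfp990 and Zfp982 had no copy that shares at least 50% of their words. Summing therefore could not change their 9, 6 and 3 strains near 0. Zfp984, when summed with Gm13212, was near 0 in no strain.

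**Figure D3:**
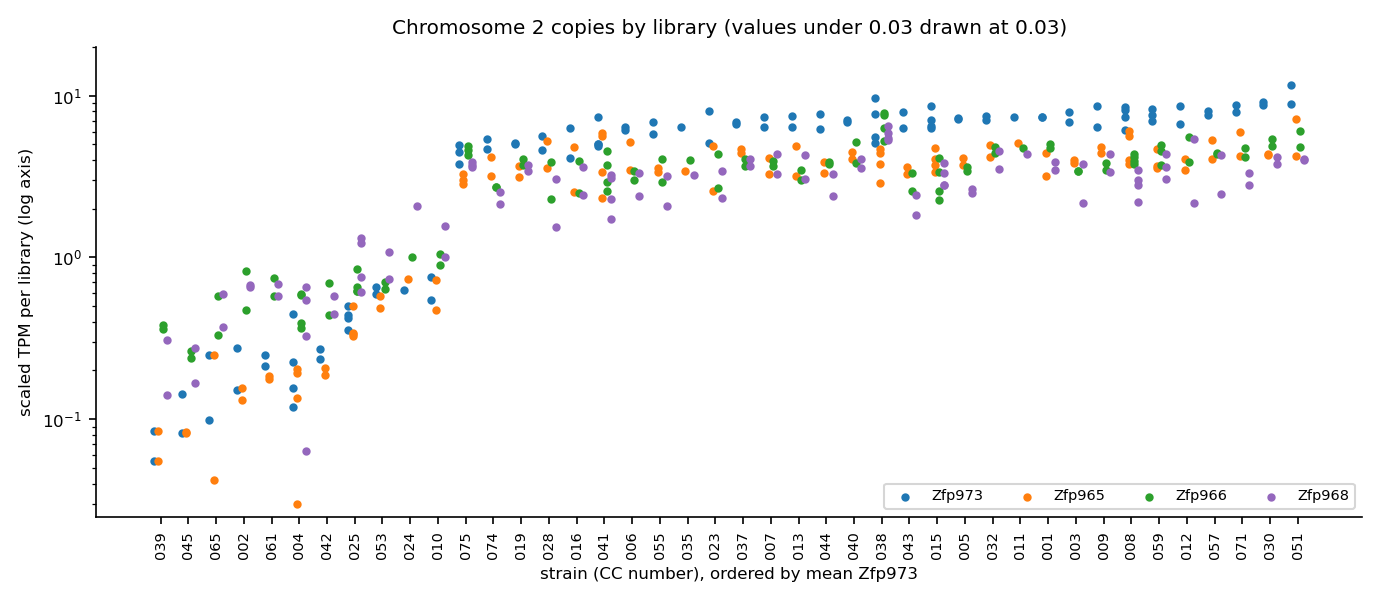
Scaled TPM of the copies Zfp973, Zfp965, Zfp966 and Zfp968 in every library (log axis), 1 colour per gene, strains ordered by mean Zfp973. In the 11 strains at the left, Zfp973 is at or below 0.755, and in the other 31 at or above 3.77.

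The other members of the chromosome 2 cluster did not follow these 11 strains as closely. Zfp970, with the highest median level of all members (12.7 TPM), read 24.1, 29.4, 24.1 and 30.9 in CC038 and 7.45 and 5.82 in CC045 (gap 1.95, adjusted p 1.4e-11, limma's moderated F test), yet 18.8 and 20.1 in CC053, which is among the 11. Zfp971 (median level 6.07) read 8.04 and 10.4 in CC007 and 2.34 and 3.04 in CC039 (gap 1.60, adjusted p 9.67e-09). Zfp931 (median 7.60) read 7.89 and 10.5 in CC007 and 4.87 and 4.57 in CC045 (gap 0.88, adjusted p 0.000239). Zfp972 (chr2:177903340-177925613, minus strand) had a median of 0.312 and was near 0 in CC013, where 1 library was listed at 0 and the other was under 0.001. It read 1.22 and 0.83 in CC053, and 1.04 in the single library of CC024 (gap 1.60, adjusted p 5.75e-05).

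The 11 low strains of chromosome 2 were not those of chromosome 4. They shared 3 (CC004, CC053 and CC061) with the 7 lowest strains of Zfp990 and 2 (CC002 and CC065) with the 10 lowest of Zfp979. In the heat map of members by strain, blocks of low or high values run within a cluster.

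**Figure D4:**
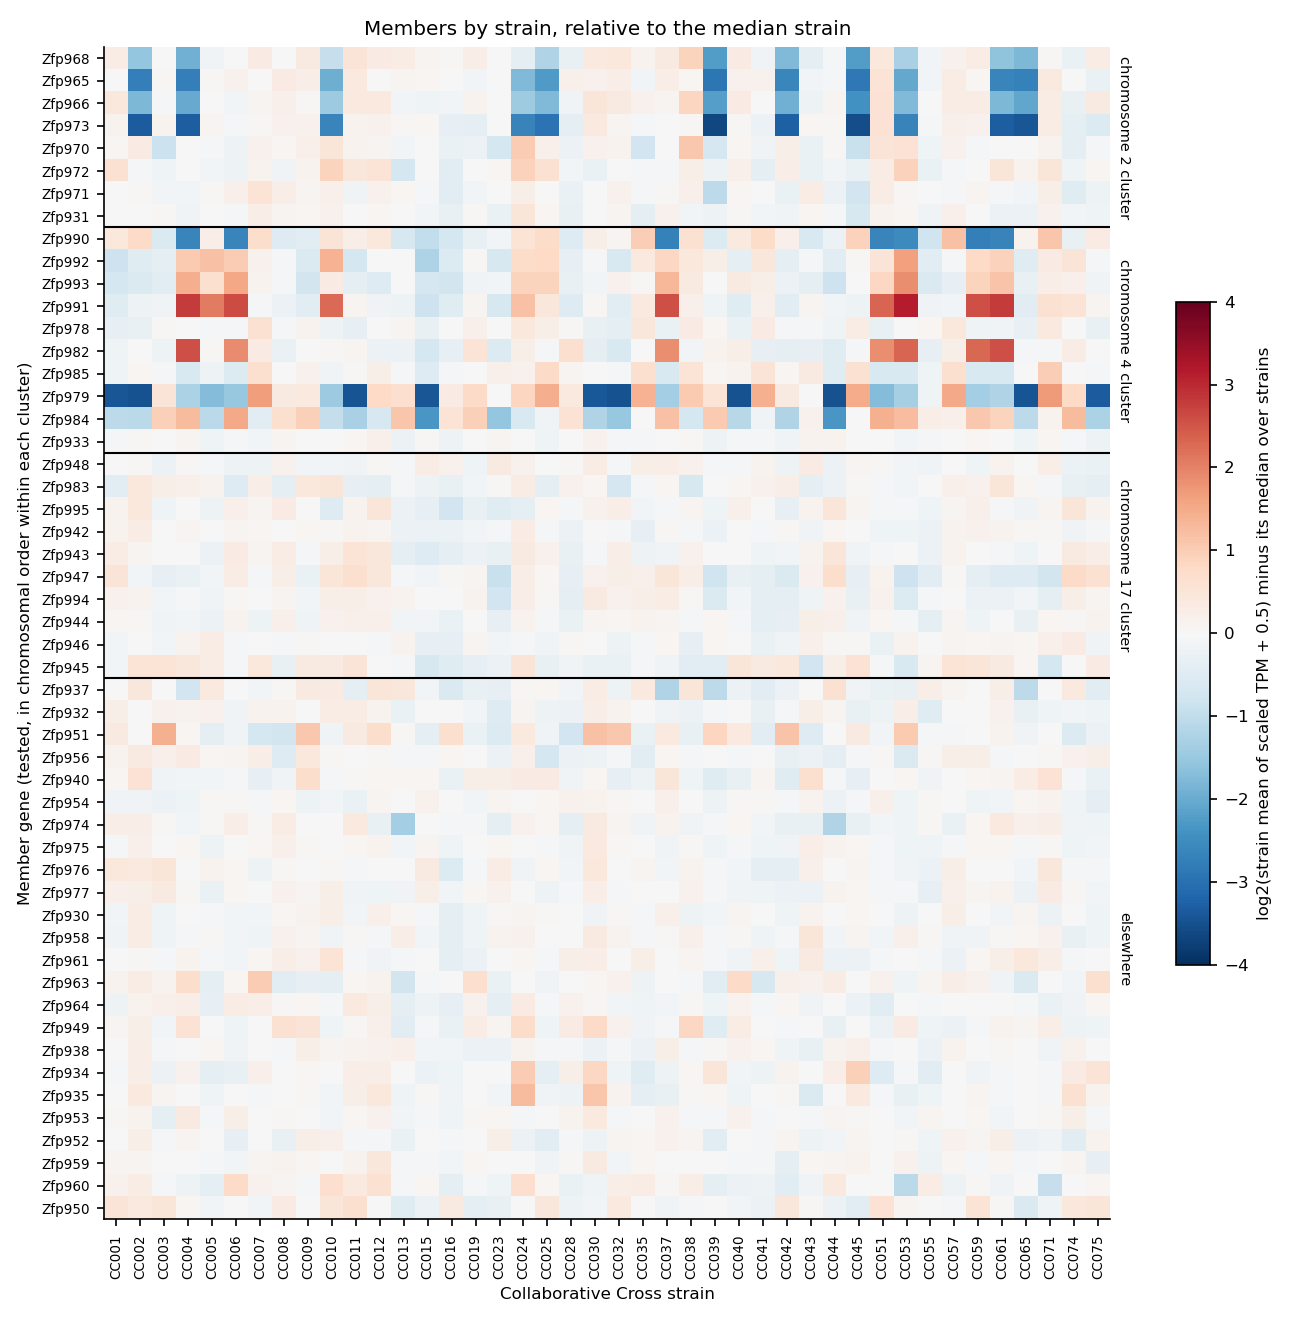
Strain mean of each of the 52 tested members as log2(scaled TPM + 0.5) minus the member's median over strains (colour), in 42 strains. Members of the chromosome 2 and 4 clusters hold the deepest colours, Zfp965, Zfp966, Zfp968 and Zfp973 in the same 11 strains.

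The chromosome 17 cluster differed less in size between strains. All 10 of its members reached a mean of 1 TPM in some strain and none was near 0 in any. Zfp947 had the widest gap, with 1.63 and 1.96 TPM in CC074 and 0.227 and 0.227 in CC023 (1.65, adjusted p 8.8e-17, limma's moderated F test). Zfp945 read 7.54 and 6.09 in CC045 and 2.76 and 2.09 in CC043 (gap 1.33, adjusted p 6.64e-17). Zfp948, at a median level of 5.68, had a gap of 0.63 (adjusted p 0.00117), with 5.06, 4.82 and 4.1 in CC075 and 6.71 and 8.26 in CC023. Its level moved with the smooth muscle sum (r = 0.53, 5 of 5 markers detected), whose part in this result was not tested. Of 45 pairs here, 9 had r above 0.5, led by Zfp947 with Zfp994 (0.86).

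Of the members elsewhere, Zfp951 on chromosome 5 (chr5:104813169-104860070, minus strand) had a gap above 2. It read 3.09 and 3.16 TPM in CC003, 2.76 and 2.4 in CC030, and 0.341 and 0.244 in CC028 (gap 2.19, adjusted p 6.44e-22, limma's moderated F test). Gaps between 1.68 and 1.84 were seen for Zfp960, Zfp937, Zfp974, Zfp963 and Zfp935. Zfp937 read 3.6 and 2.92 in CC044 and 0.698 and 0.431 in CC037, and Zfp974 4.15 and 3.28 in CC061 and 0.86 and 0.618 in CC013. The smallest gaps among members with a median of at least 1 TPM were those of Zfp933 (0.44), Zfp942 (0.56, adjusted p 0.00177) and Zfp954 (0.56, adjusted p 0.00257). Zfp942 read 5.13 and 5.99 in CC002 and 4.18 and 3.1 in CC028, and Zfp954 4.97 and 4.87 in CC037 and 3.27, 3.21 and 3.07 in CC075. The within-strain SD had a median of 0.17 over tested members on the same log2 scale (0.11 to 0.32).

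For 3 tested members no difference between strains passed the test. Zfp932, which binds endogenous retrovirus sequences, read 6.17 and 5.13 TPM in CC010 and 4.09 and 1.93 in CC023 (gap 0.88, adjusted p 0.094, limma's moderated F test). Zfp959 had adjusted p 0.0652 and Zfp975 0.125. The other 11 members were below the filter: Zfp936, Zfp941, Zfp957, Zfp967, Zfp969, Zfp980, Zfp981, Zfp986, Zfp987, Zfp988 and Zfp989. Their highest strain means were between 0.0121 (Zfp936) and 0.474 (Zfp981). All words of Zfp967 and Zfp969 also occur in other genes.

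Called strain by strain, members were higher or lower than the mean of the other strains in 627 of 2028 pairs of a member and a strain, by limma contrasts with adjustment over all genes and strains. They were lower in 288 (14.2%, where 7.09% of all pairs of a gene and a strain were lower) and higher in 339 (16.7%, where 7.75% were higher). Of the 52 tested members, 50 had at least 1 such call. These counts also depend on the number of libraries, since more libraries make a call easier. Strains with 4 libraries had 18 (CC025) to 22 (CC038) calls, and strains with 2 libraries had 9 (CC019) to 21 (CC010). CC038, with 4 libraries, had the most calls (16 higher, 6 lower). CC015 had 5 higher and 16 lower, CC039 4 and 16, CC042 6 and 15, and CC065 1 and 13. CC030 had 17 higher and 3 lower. The share of pairs called was 30.9%, and 17.7% with the libraries numbered 1 in each strain left out. In the 20 strains with distant title numbers it was 21.6% (225 of 1040).

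Transcripts of a member differed between strains as well. The table held 160 annotated member transcripts, and 94 were tested. Of these, 75 (79.8%) passed limma's moderated F test, where 53.5% of all 39287 tested transcripts did. This count in part repeats the gene result, since 20 members had 1 deposited transcript. It also holds the 1271-base sequence of Zfp965 and Zfp973 under both genes. In the 20 strains with distant title numbers 48 passed, and 45 and 43 without replicate 1 and without replicate 2. The leading transcript changed between strains in 17 members, a count that has no test and no share over all genes beside it. In Zfp940, Zfp961, Zfp970, Zfp974 and Zfp991 the change rested on 1 strain. Strains near 0 were ranked too, as for Zfp979 and Zfp984, where the lead rests on few reads. Zfp945 has 4 deposited transcripts, named here by length. It was led by the one of 3762 bases in 19 strains, that of 4078 bases in 17, that of 6618 bases in 5 and that of 5683 bases in 1. The 4078-base transcript, annotated as a retained intron, ran from 0.19 TPM (CC043) to 3.18 (CC003), a gap of 2.46 (adjusted p 6.15e-13). Zfp949 was led by its 3472-base transcript in 26 strains and by that of 3163 bases in 12. The 3163-base transcript ran from 4.8e-05 in the single library of CC011, a strain not tested, to 3.54 in CC038. Over the tested strains its gap was 3.00 (adjusted p 3.21e-22, limma's moderated F test). Zfp932, whose gene total did not pass, was led by a 2081-base transcript in 22 strains and a shorter coding one in 13. Both passed limma's moderated F test (adjusted p 0.000185 and 7.77e-08), as did each of its other deposited transcripts. Zfp950 was led in 36 strains by a 2753-base transcript annotated as subject to nonsense-mediated decay (1.07 to 2.83 TPM), and in 6 by a coding one of 2568 bases.

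**Figure D5:**
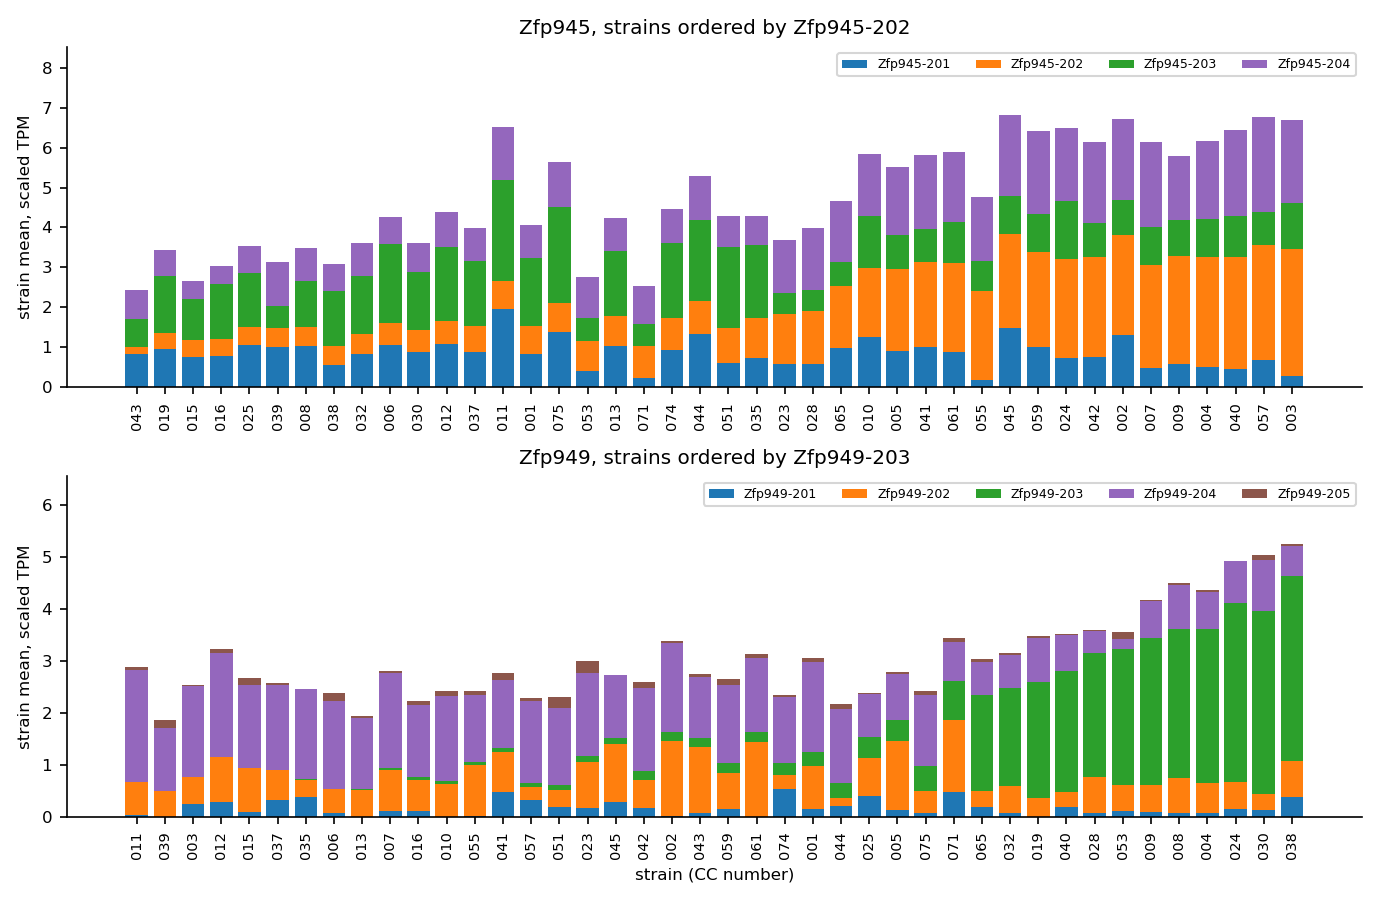
Strain means of the deposited transcripts of Zfp945 and Zfp949, stacked, in scaled TPM, strains ordered by the 4078-base transcript of Zfp945 (orange, top) and the 3163-base transcript of Zfp949 (green, bottom). The green block of Zfp949 runs from near 0 at the left to 3.54 TPM in CC038 at the right.

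The genes outside the rule with the closest patterns lay on the same chromosome. For 13 members (those with the widest gaps or near 0 somewhere), the 3 genes with the highest r over the 42 strain means gave 39 entries on the same chromosome as the member, where chromosomes 2, 4 and 5 hold 8.25%, 6.68% and 6.05% of tested genes. The 39 entries were 23 different genes, because members that are copies of each other often named the same ones. For Zfp979 they were Gm20707 (0.89), Masp2 (0.81) and Prkcz (0.55). For Zfp990 they were Gm13230 (0.92), Gm13169 (0.75) and Clcn6 (0.75). For Zfp982 they were Fbxo44 (0.85), Znf41-ps (0.80) and Mxra8 (0.67), and for Zfp973 Gm14305 (0.99), Gm14296 (0.98) and Gm4724 (0.98). In 16 of the 39 entries the gene shared at least 5% of the member's words. All of these r values are over strain means that share the same libraries and carry no test.

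The partners through which KRAB zinc finger proteins act had narrower ranges. All 24 were tested and 20 (83.3%) passed limma's moderated F test, where 81.6% of all tested genes did. Their median gap was 0.65 (1.57-fold), against 1.03 over all tested genes and 0.72 over Zfp1 to Zfp899. Trim28, the corepressor, had a median of 55.1 TPM and a gap of 0.44 (adjusted p 0.000268). Setdb1, its methyltransferase partner, had a median of 9.69 and a gap of 0.51 (adjusted p 3.21e-05). The widest gaps were those of Sumo2, with 149.6 ± 2.93 (SD, n = 2) in CC051 and 21 ± 4.92 (SD, n = 2) in CC071 (2.82, adjusted p 9.99e-19), Uhrf1 (1.60, adjusted p 0.0444) and Chd3 (1.13, adjusted p 0.000153). The narrowest were Ehmt1 (0.39, adjusted p 0.0333) and Morc3 (0.43, adjusted p 0.0123). Atf7ip, Mphosph8, Smarcad1 and Ehmt2 did not pass. In the 20 strains with distant title numbers 5 of the 24 passed, where 41.4% of all tested genes did.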

How the data were processed

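RNA-seq of cultured calvarial osteoblasts was described from 1 deposited table of 94545 Ensembl transcripts and 96 columns. The table is named as counts, but each column sums to 1000000, so the deposited values are TPM, and limma was used in place of a count test. The submitters' processing notes name Bowtie and mm9, and no source used here names the quantifier. How strain-specific sequence affects alignment to that reference was not tested. The 2 runs of 1 CC030 library were averaged, which left 95 libraries. Transcripts were matched by Ensembl ID to GENCODE M21 (91225 of 94545, a median of 98.2% of TPM) and summed into 37945 genes.

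Libraries were scaled by the trimmed mean of their log ratios to the mean profile, computed on 11931 genes (30% and 5% trimmed, factors 0.7925 to 1.2448). limma 3.58.1 (R 4.3.3), with a trend of variance on level, tested log2(scaled TPM + 0.5) between the 39 strains (92 libraries) with at least 2 libraries, for features of at least 0.5 TPM in 2 libraries, with Benjamini-Hochberg adjustment over the whole table. Tests were tried on simulated data. The labels give no batch. Depth limits precision at low levels and was estimated from the spacing of low values. Other steps used Python 3.11.15, numpy 2.4.6, pandas 2.3.3, Biopython 1.88 and matplotlib 3.10.9. Promoters came from RefSeq (GRCm38.p6). Alternatives were other pseudocounts, filters and scaling, no variance trend, copies summed, other near-0 limits, replicates left out and strains with distant title numbers.

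Named members were the 12 widest gaps, all near 0 somewhere, the 3 narrowest with a median of at least 1 TPM, the 5 highest, up to 4 whose leading transcript changed, and their near-identical copies, and other members named were chosen after their values were seen. Members and lists were chosen with earlier results of these data known.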

Additional observations from a re-analysis of the deposited data

Results flagged for a closer look

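Among strains with 4 libraries, 1 library stood far from the other 3 in 5 of 78 groups (13 members in 6 strains), where chance gives about 1 in 20. Zfp965 in CC025 read 0.503 TPM in replicate 2 against 0.325 to 0.342 in the other libraries. Zfp973 in CC041 read 7.35 in replicate 3 against 4.87 to 5.05. Zfp984 in CC015 read 0.0607 in replicate 2, with the other libraries under 0.001. Zfp984 in CC041 read 2.10 in replicate 1 against 1.73 to 1.78. Zfp992 in CC038 read 2.18 in replicate 1 against 3.01 to 3.16.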

How the results depend on the processing

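Under every alternative tried, the 13 members with the widest gaps or near 0 somewhere kept their call where they were tested (12 were tested under the stricter filter), and no result changed direction. The count of 49 member genes was 33 to 48 with 1 replicate number left out, 35 in the 20 strains with distant title numbers, 46 on TPM as deposited, 52 of 63 with no filter and 44 of 47 with a stricter one. Without replicate 1, 2, 3 or 4, in fits where a strain left with 1 library is assumed to vary like the others, transcripts passing were 43 to 75 (75 in all libraries), KRAB partners 4 to 18 (20), tested genes of Zfp1 to Zfp899 26.4% to 75.7% (78.3%) and strain pairs called 17.7% to 30.2% (30.9%). In the 20 strains these were 48, 5, 35.5% and 21.6%. Fewer libraries were tested in each of these settings. Of the calls for a member in a strain made in each setting, 94.7% to 100% were among the 627 made with all libraries, and 0 were opposite. Members near 0 numbered 7, with 5 under a limit of 0.05 TPM, 7 under 0.2, 8 on TPM as deposited and without replicate 2 (Zfp985 added, in 9 strains each) and 5 with copies summed. Of the last 5, Zfp972, Zfp979, Zfp982 and Zfp990 had no copy to add and so could not change, and Zfp978 was near 0 in 1 strain. Without replicate 1 or 2 of each strain, 14 and 16 members lost their call, most of them with a gap under 1. Of those whose values the text gives, Zfp931, Zfp933, Zfp935, Zfp948 and Zfp954 lost it in both and Zfp942 without replicate 2, and of these 6 Zfp935 alone kept it in the 20 strains. The others lost in both were Zfp930, Zfp938, Zfp944, Zfp953, Zfp958, Zfp964 and Zfp977. Zfp961 and Zfp976 were lost without replicate 1 but not without 2, and Zfp946, Zfp952 and Zfp995 the other way round. Zfp933 and Zfp961 also lost it without replicate 3 or 4. Without the 2 libraries in doubt, chosen after seeing the data, counts were 49 member genes, 75 transcripts, 18 KRAB partners and 619 strain calls. No paired analysis was possible because replicate numbers follow accession order and pair no libraries across strains. Depth limits the lowest levels, where 0.1 TPM stands for 1.58 to 9.39 reads.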
